A study of Homo sapiens with 16 samples.

Results

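The regions described here are the SMC1 binding sites of the Ewing sarcoma cell lines TC-32 and TC-71, taken from the narrow-peak list that the authors deposited for each line. Every distinct interval on chromosomes 1 to 22 and X was a member, and intervals of the lists were called shared when they had at least 1 bp in common. This gave 32720 intervals in TC-32 and 18264 in TC-71, together 50984 of the 114213 intervals in all 6 deposited lists of the series. The labels place TC-32 at diagnosis and TC-71 after chemotherapy, and both lines were grown in the same serum-supplemented medium. Chromatin was crosslinked, sheared and immunoprecipitated with an SMC1 antibody, and each list was called against input chromatin of its own line. Behind the lists stand 8 of the 16 samples of the series, 2 for SMC1 and 2 for input per line. Both SMC1 samples of a line share 1 list, so the spread between replicates is not known for any value below, the lines could not be tested against each other, and differences between the lists may lie within that spread. Whether the samples of a line came from separate cultures is not stated. Exact (Clopper-Pearson) 95% intervals stand beside the main shares and reflect counting alone. The lists do not give the read depth, and differences in depth or enrichment between the lines cannot be told apart from differences in binding.

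SMC1 (SMC1A) is a core subunit of cohesin, the ring-shaped complex that holds sister chromatids together and extrudes chromatin into loops. Loop extrusion tends to stop where the zinc finger protein CTCF is bound, so cohesin typically piles up in sharp peaks on CTCF sites, while weaker and broader cohesin signal is known at active enhancers and promoters, near sites of loading. Cohesin is of interest in Ewing sarcoma because its STAG2 subunit is recurrently mutated in this tumour, which is usually driven by a fusion of EWSR1 to the ETS factor FLI1. CTCF binding and STAG2 status were not analysed here.

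Shared SMC1 intervals matched almost one to one. In TC-32, 16460 intervals overlapped a TC-71 interval (50.3%, interval 49.8 to 50.8%), and in TC-71, 16495 overlapped a TC-32 interval (90.3%, 89.9 to 90.7%). Among 16500 overlapping pairs, 16412 involved no further interval. Only 39 TC-32 intervals spanned 2 or more TC-71 intervals, and 5 TC-71 intervals spanned 2 or more of TC-32. Below, a pair means 2 intervals that are each other's largest overlap, of which there were 16456. TC-32 intervals were the wider ones, with a median of 265.5 bp against 189 bp at pairs, and in 70.0% of pairs the TC-71 interval lay wholly inside the TC-32 interval. The reverse was seen in 4.65% of pairs. Intervals listed in 1 line were narrower than shared ones, at a median of 205 against 265 bp in TC-32 and 154 against 189 bp in TC-71.

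Intervals without a partner were seldom near misses. Of the 16260 TC-32 intervals without overlap, 562 (3.46%, 3.18 to 3.75%) had a TC-71 interval within 1 kb of their edge, and the median distance to the nearest one was 46.3 kb. Of the 1769 TC-71 intervals without overlap, 86 (4.86%, 3.91 to 5.97%) had a TC-32 interval within 1 kb, and the median distance was 28.0 kb. Allowing a summit of the other line within 500 bp in place of an overlap gave 50.7% shared in TC-32 and 90.5% in TC-71.

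At the head of both lists sharing was nearly complete. All 100 highest-ranked intervals of each line were listed in the other, where rank follows the authors' −log10 q (the negative decimal logarithm of the peak's false discovery rate) within each list. The highest interval without a partner ranked 119 in TC-32 and 329 in TC-71. Among the highest 1000, 11 TC-32 and 6 TC-71 intervals lacked a partner, and among the highest 10000 the numbers were 1131 and 372.

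The pair with the highest mean rank lay at 13q32.3 (hg19, chromosome 13, 100089113 to 100089550 in TC-32 and 100089119 to 100089523 in TC-71). It ranked 1 in TC-71 and 8 in TC-32, and the summits, the positions of strongest signal, lay 1 bp apart. At 9p13.3 (chromosome 9, 33722084 to 33722452 in TC-32) the ranks were 6 in TC-32 and 3 in TC-71, with summits 9 bp apart. The TC-32 fold enrichment over input there was 40.9, the highest of its list. At 14q11.2 (chromosome 14, 23589973 to 23590425 in TC-32) the ranks were 3 and 12, at 15q25.1 (chromosome 15, 78400618 to 78401077) 5 and 13, and at 11p13 (chromosome 11, 34195891 to 34196325) 41 and 9, in TC-32 and TC-71 respectively. None of these 5 leading pairs lay in an H3K27ac domain, the mark of active promoters and enhancers, of either line, and none held a TC-71 BORIS site. Of all pairs, 81.5% lay in no such domain and 98.1% held no BORIS site.

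Summits of shared peaks lay close together in the 2 lines. Over the 16456 pairs the median distance was 9 bp, 54.4% were within 10 bp, 81.9% within 20 bp and 90% within 27 bp. Over all pairs the median signed offset was 0 bp, with 47.6% of TC-71 summits at a lower and 49.5% at a higher coordinate than the TC-32 summit and 2.86% at the same base. In the lowest TC-71 rank quartile the signed median was 2 bp, with 45.8% lower and 52.6% higher, and at its acetylated pairs with 1 summit in both lines it was 5 bp, with 42.4% lower and 56.8% higher. The overlap of short intervals itself keeps summits near each other, since single summits sat close to the middle of their interval, at a median of 49.5% of its width in each line. The distance was smaller at high-ranked peaks. From the highest to the lowest TC-71 rank quartile the median rose from 7 to 9, 10 and 15 bp, and by TC-32 rank from 8 to 10, 13 and 16 bp. The 3521 pairs in the highest quartile of both lists had a median of 7 bp and 99% were within 30 bp, while the 457 pairs in the lowest quartile of both had a median of 20 bp.

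**Figure D1:**
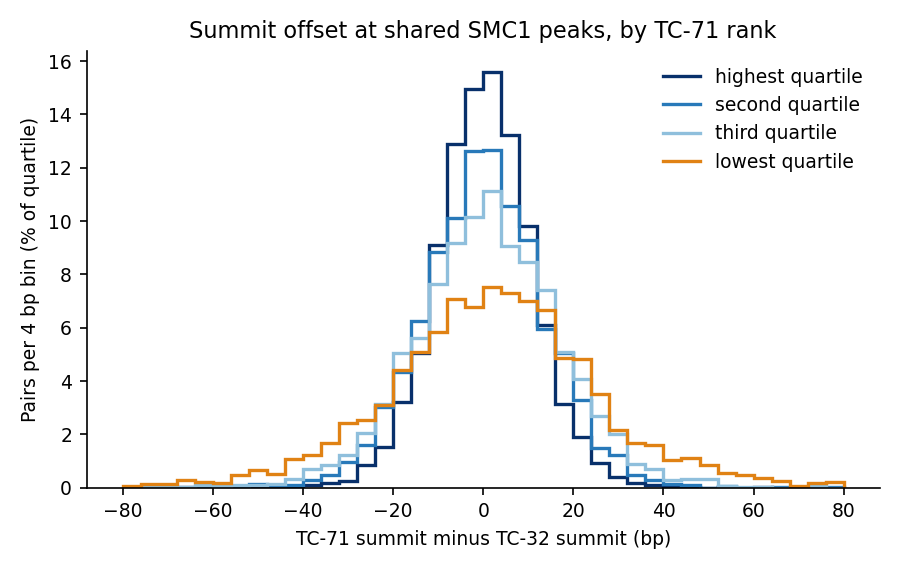
Distribution of the summit offset (TC-71 minus TC-32, in bp) at shared SMC1 peaks, in 4 bp bins, as a percentage of the pairs in each TC-71 rank quartile. The signed medians are 0 bp in the upper 2 quartiles, 1 bp in the third and 2 bp in the lowest, and the curve widens from the highest quartile (median distance 7 bp) to the lowest (15 bp); 8 pairs of the highest and 136 of the lowest quartile lie beyond the plotted range.

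Acetylated pairs had a longer tail of distances. At 3049 pairs in an H3K27ac domain of either line the median was 11 bp and the 99th percentile 262.6 bp, against 9 bp and 56 bp at the 13407 pairs outside. Among pairs with 1 summit in both lines and a TC-71 rank in the lowest quartile, the medians were 18 bp inside and 14 bp outside such domains, while in the highest quartile both were 7 bp. Distances above 100 bp occurred at 132 pairs. Of these, 98 (74.2%) lay in an H3K27ac domain of either line, against 18.5% of all pairs, and 79 had several summits in at least 1 line.

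The 5 largest offsets all arose where TC-32 had a long interval with several summits and TC-71 a short interval with 1. At 20p13 (chromosome 20, 4463819 to 4465713 in TC-32, 4464009 to 4464242 in TC-71) the highest TC-32 summit of 5 lay 1351 bp from the TC-71 summit, but another TC-32 summit was 57 bp from it. At 6q21 (chromosome 6, 110360658 to 110361688) the offset was 714 bp, with the closest summits 16 bp apart. The others were at 6p22.3 (chromosome 6, 16128908 to 16129887, 604 bp), 2p24.3 (chromosome 2, 12856154 to 12856954, 594 bp) and 3q26.31 (chromosome 3, 174158511 to 174159487, 568 bp), with closest summits 53, 31 and 28 bp apart. In these regions the TC-71 summit lay nearer to a lower-ranked summit of TC-32 than to the highest one. All 5 were acetylated in TC-32, and all except 6q21 in TC-71.

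Ranks of shared peaks agreed moderately between the lines. Spearman's rho of −log10 q across the 16456 pairs was 0.54, given as a description, because peaks are not replicates. Ranking by fold enrichment instead gave 0.40. The median absolute difference in percentile among the pairs was 17.2 points. In all, 32.6% of pairs lay within 10 points of each other and 8.05% more than 50 points apart, 675 of them higher in TC-32 and 650 higher in TC-71. Of the highest quartile of pairs in TC-32, 57.8% were also in the highest quartile in TC-71 and 5.83% in the lowest.

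Agreement was closest at the top, yet the order of the leading peaks differed. The highest decile of pairs in TC-32 had a median TC-71 percentile of 88.1, with an interquartile range of 71.8 to 95.6, while the fifth decile had 51.0 (30.1 to 70.9) and the lowest 23.2 (10.3 to 42.7). Although all of the 100 highest TC-32 peaks were listed in TC-71, 23 of them were among the 100 highest there. The corresponding numbers were 404 of 1000 (40.4%, 37.3 to 43.5%) and 6679 of 10000 (66.8%). By fold enrichment the overlap of the 1000 highest fell to 263.

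**Figure D2:**
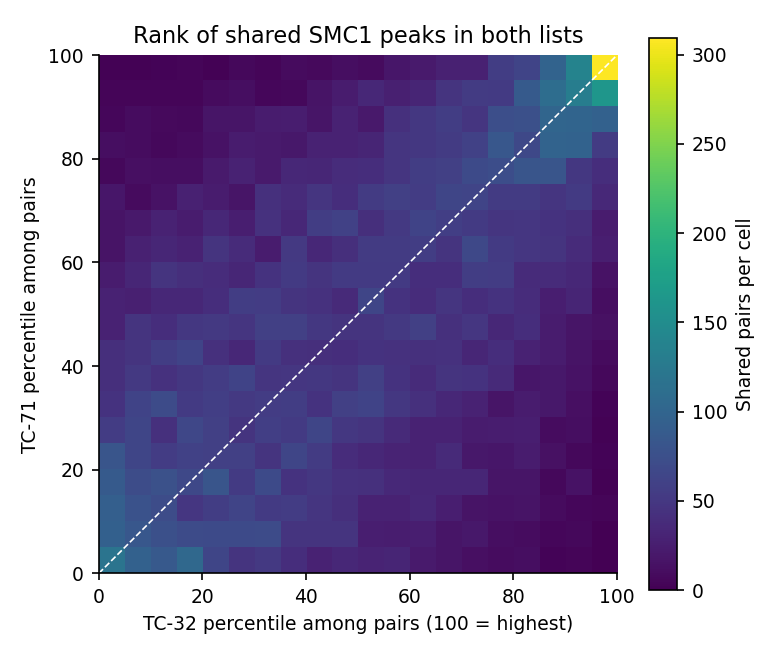
Number of shared SMC1 pairs by percentile of −log10 q among the pairs in TC-32 (horizontal) and TC-71 (vertical), in cells of 5 by 5 points, with the line of equal rank dashed. The fullest cell is the top corner with 309 pairs; elsewhere pairs spread widely around the line (rho 0.54).

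Single sites could stand near the top of one list and near the bottom of the other. For these sites the percentiles are those within each full list, not among the pairs, and the order of the sites differs between these scales. On the full-list scale the largest difference towards TC-71 was at 11p15.1 (chromosome 11, 18797328 to 18797544 in TC-71), which stood at the 92.8th percentile of the TC-71 list (fold 10.96) and the 2.40th of the TC-32 list (fold 2.73). At 14q32.13 (chromosome 14, 94952673 to 94952901) the percentiles were 95.6 in TC-71 and 14.4 in TC-32, and at 10q22.1 (chromosome 10, 73715917 to 73716128) 96.5 and 19.1. The 2 further sites of this group were at 7q33 (chromosome 7, 136854040 to 136854217) and 3q23 (chromosome 3, 141193151 to 141193353).

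Towards TC-32 the largest difference on this scale was at 6q14.1 (chromosome 6, 75913904 to 75914282 in TC-32), with percentiles of 95.5 in TC-32 (fold 16.0) and 1.79 in TC-71 (fold 3.36). The site at 15q26.2 (chromosome 15, 94540273 to 94540664) ranked 144 in TC-32, with a fold of 31.9, and 16799 in TC-71, with a fold of 4.86. The others lay at 1q42.12 (chromosome 1, 226098986 to 226099374), 6q16.3 (chromosome 6, 100624622 to 100624890) and 6q23.3 (chromosome 6, 137523286 to 137523546). All 10 of these discordant sites lay outside the H3K27ac domains of both lines, where 81.5% of all pairs lay, and their summits were between 5 and 44 bp apart.

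Rank differences moved only slightly with acetylation. At the 884 pairs acetylated in TC-32 alone the median difference in percentile (TC-71 minus TC-32) was -2.36 points, and at the 519 acetylated in TC-71 alone it was 2.04 points. It was -1.39 points at the 1646 pairs acetylated in both and 0.37 points at the 13407 in neither. The interquartile ranges were wide, at -20.7 to 11.7 points for pairs acetylated in TC-32 alone and -13.3 to 20.5 points for those acetylated in TC-71 alone. Of the first group 55.1% ranked higher in TC-32, and of the second 53.0% ranked higher in TC-71, against 49.9% and 50.1% of all pairs.

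Sharing varied by chromosome more in TC-32 than in TC-71. With single partners and a TC-71 share that varied little, the TC-32 share largely restates the ratio of TC-32 to TC-71 interval numbers. That ratio was 1.31 on chromosome 19, 2.61 on X and 1.79 in all. The highest TC-32 share was on chromosome 19, where 649 of 965 intervals had a partner (67.3%, 64.2 to 70.2%), followed by 64.3% on chromosome 22. The lowest was on chromosome X, with 321 of 937 (34.3%, 31.2 to 37.4%). In TC-71 the X share was 89.97% (86.4 to 92.9%), near that of the whole list, and the lowest share was on chromosome 14, at 84.1% (81.2 to 86.8%). Sharing in TC-32 was lower on X in every rank quartile, at 75.7% against 91.8% on the autosomes in the highest, 46.5% against 65.9% in the second, 26.1% against 34.0% in the third and 7.004% against 10.9% in the lowest, where the exact intervals (4.20 to 10.8% and 10.2 to 11.6%) overlapped. TC-71 listed 2.31 SMC1 intervals per Mb on X and 6.02 per Mb in all, and TC-32 6.03 and 10.8.

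Chromosome arms differed in both sharing and rank. On 1q, TC-32 had 1732 intervals and TC-71 811, and on 1p they had 1609 and 1068. On 1q, 44.8% (42.4 to 47.2%) of TC-32 and 95.9% (94.3 to 97.2%) of TC-71 intervals were shared, against 59.8% and 90.2% on 1p. The TC-32 share of the whole list, 50.3%, lay between those of 1p and 1q. A low TC-32 share was not particular to 1q, since several arms lay lower, such as 4q at 41.0% and Xp at 29.1%. At the 776 pairs of 1q, 73.3% ranked higher in TC-32, with a median difference of -13.9 points, whereas on 1p 39.6% did, with a median of 5.71. The 118 pairs of 17p had a median of -14.6 and the 592 pairs of 17q one of 7.99, and the 135 pairs of Xp had -14.2. Within bands that stain light with Giemsa, the medians were -11.4 on 1q, -15.0 on 17p and -9.84 on Xp. These arms were singled out after their values were seen.

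The direction of the 1q and 17p differences depended on the measure used for ranking. With fold enrichment the medians were 3.51 points on 1q against 2.35 on 1p, 4.24 on 17p against 2.12 on 17q, and -2.96 on Xp, so that the contrasts between the arms of chromosomes 1 and 17 seen by −log10 q were no longer present. Within each list, −log10 q and fold gave different positions on these arms. The −log10 q rises with the number of reads as well as with enrichment, while the fold does not count reads. On 1q in TC-32, 90.4% of intervals stood higher by −log10 q than by fold, with a median gap of 11.9 percentile points, while in TC-71 the gap was 1.00. On 17p the gap was -16.9 points in TC-71 and 0.57 in TC-32, and on 17q it was 6.48 and 0.44. On X it was negative in both lines and larger in TC-71, at -15.8 on Xp and -17.1 on Xq against -4.35 and -6.12 in TC-32. Chromosome 8 showed gaps of 10.2 on 8q in TC-71 and 8.04 on 8p in TC-32. Read counts per arm were not analysed here, and their part in these differences was not tested.

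**Figure D3:**
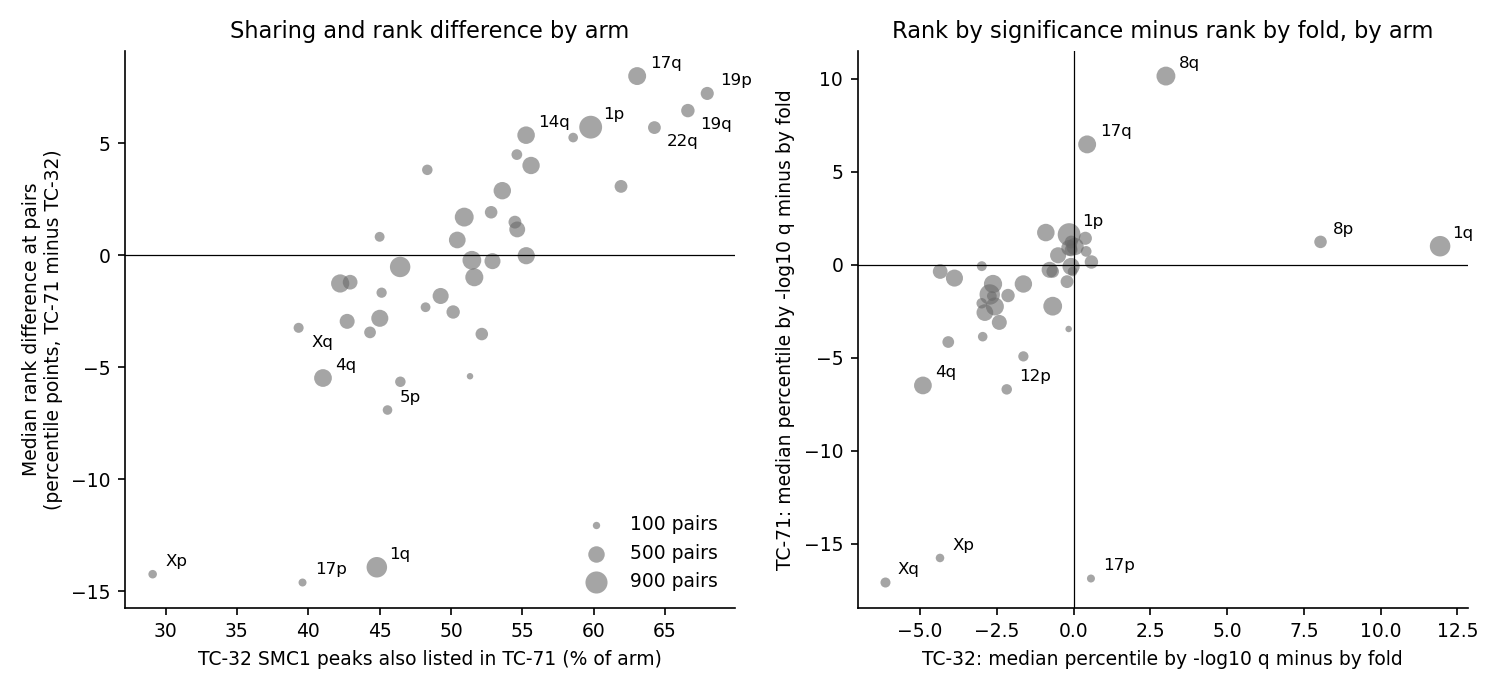
Left, share of TC-32 SMC1 intervals with a TC-71 partner (horizontal, percent) and median rank difference at pairs (vertical, percentile points of −log10 q, TC-71 minus TC-32) for each chromosome arm, with point area by number of pairs; 1q, 17p and Xp lie lowest, at -13.9, -14.6 and -14.2. Right, median over the intervals of each arm of the difference between percentile by −log10 q and percentile by fold within a list, TC-32 horizontal and TC-71 vertical. Here 1q stands out in TC-32 (11.9) and 17p, Xp and Xq in TC-71 (-16.9, -15.8 and -17.1).

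TC-32 peaks were more densely spaced than TC-71 peaks, as the longer list requires. The median distance between neighbouring summits was 44.8 kb in TC-32 (interquartile range 13.0 to 107.8 kb) and 79.4 kb in TC-71 (27.7 to 177.8 kb). With the TC-32 list cut, by the authors' −log10 p, to the length of the TC-71 list the median was 83.9 kb (27.03 to 191.3 kb). Shared peaks alone had medians of 87.9 kb in TC-32 coordinates and 87.5 kb in TC-71 coordinates. These values had to lie close, since the shared peaks of the lines are matched sites.

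**Figure D4:**
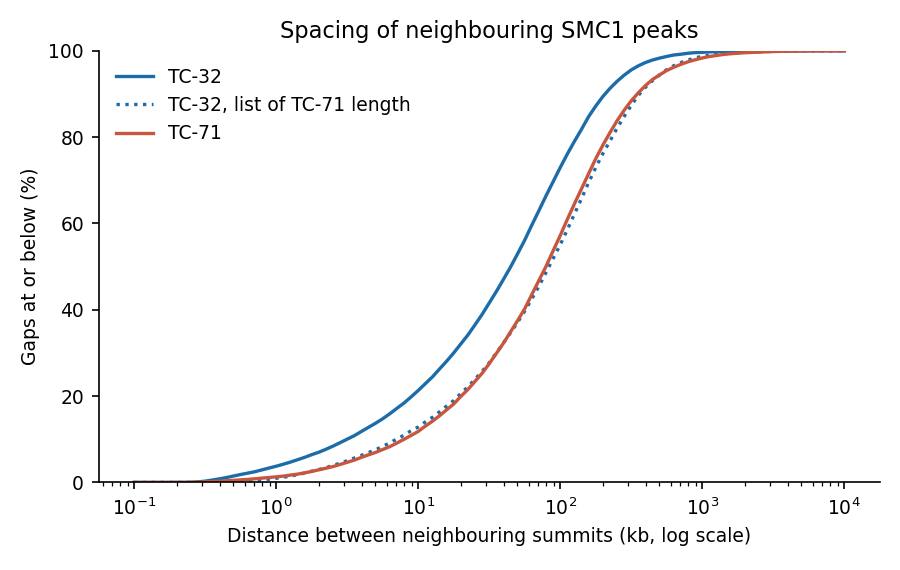
Cumulative share of gaps (percent) by distance between neighbouring SMC1 summits (kb, log scale) for TC-32, TC-71 and the TC-32 list cut to the 18264 intervals of TC-71. The full TC-32 curve lies to the left (median 44.8 kb), while the cut TC-32 list (83.9 kb) and TC-71 (79.4 kb) run together.

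The pairs divided the chromosomes into 16433 segments, of which 8647 (52.6%) held no unshared interval of either line, 7153 (43.5%) held TC-32 intervals and 1522 (9.26%) held TC-71 intervals. In 745 segments there were 5 or more TC-32 intervals, together 5446 of the 16260 unshared ones.

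The closest neighbours in TC-32 were the ones least often shared. Of the 2334 TC-32 intervals with a neighbour within 1 kb, 28.9% (27.04 to 30.8%) were shared and 69.7% overlapped TC-32 H3K27ac, as did 25.9% of the whole list. With the nearest neighbour 1 to 5 kb away the shares were 49.9% and 30.3%, and beyond 100 kb 49.4% and 13.4%. Rank entered here too. Intervals with a neighbour within 1 kb had a median percentile of 30.1. In the highest rank quartile their sharing was 90.6%, against 88.6 to 92.7% at larger distances, and in the lowest 5.04%, against 8.06 to 13.6%. In TC-71, intervals with a neighbour within 1 kb were shared at 84.5% (80.9 to 87.7%) and acetylated at 39.6%, against 13.6% of the whole TC-71 list.

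With 50.3% of TC-32 and 90.3% of TC-71 intervals shared, long runs of neighbouring peaks without a partner could form more easily in TC-32. In TC-32, 117 runs of 10 or more held 1565 intervals, and the longest TC-71 run had 6. The longest was at 5q23.2 (chromosome 5, 123091437 to 125689884), with 33 TC-32 intervals over 2598 kb, and no TC-71 interval. Of these 33, 9 were acetylated, near the 25.9% of the whole TC-32 list. TC-32 listed 21 H3K27ac domains in this stretch and TC-71 listed 1. Next came 3p14.2 (chromosome 3, 61550268 to 63335626) with 31 intervals, where TC-32 had 17 domains and TC-71 7. The long arm of chromosome 1 held a pair of runs, at 1q31.1 (chromosome 1, 188947168 to 191976794) with 29 and at 1q31.3 (chromosome 1, 193724304 to 196278827) with 28. TC-32 had 14 and 15 domains in these runs, and TC-71 6 in each. At Xp22.31 (chromosome X, 5599314 to 8939504) there were 25 intervals. There TC-32 listed 20 domains and TC-71 18. The domain totals of the lines are not given here, so these counts cannot be set against the whole lists. The runs were not made of the weakest peaks alone, since the strongest interval in each stood between the 76.2nd and the 91.1st percentile, although the medians were low, between 16.6 and 39.6.

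The longest TC-71 runs were short. At 20q12 (chromosome 20, 38058510 to 38880254) 6 TC-71 intervals lay in a stretch with no TC-32 interval. TC-71 had 4 H3K27ac domains there and TC-32 none (0). Runs of 4 were found at 22q11.22 (chromosome 22, 22785956 to 22901807), a band that contains the immunoglobulin lambda locus, at 4p16.3 (chromosome 4, 236111 to 616880), 16p13.3 (chromosome 16, 2969684 to 3078479) and 11q24.2 (chromosome 11, 125225244 to 125322809). In that order TC-71 had 3, 3, 5 and 0 domains and TC-32 1, 5, 4 and 0. Without the domain totals of the lines, these counts too cannot be set against the whole lists. The 4p16.3 stretch held 1 TC-32 SMC1 interval. The TC-32 gap holding most TC-71 intervals was at 20q12 as well (6), equalled by gaps at 22q11.22 and at 14q32.33 (chromosome 14, 107198799 to 107287598), the band of the immunoglobulin heavy chain locus.

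Over the whole TC-32 list 50.3% of intervals were shared and 25.9% acetylated, and over the whole TC-71 list 90.3% and 13.6%. The densest 100 kb windows of TC-32 held 14 intervals each, at 1q42.3 (chromosome 1, 234651745 to 234748450) and 11q13.3 (chromosome 11, 69436096 to 69533102), the latter a band that contains CCND1, which encodes cyclin D1. At 1q42.3, 11 of the 14 were acetylated and 1 was shared, and at 11q13.3, 10 were acetylated and 5 shared. At 9q22.1 (chromosome 9, 91275720 to 91374508) 10 of 13 were acetylated and 2 shared, and at 1q25.3 (chromosome 1, 185615474 to 185705058) all 12 were acetylated and 3 shared. The exception among the 5 densest was 1q22 (chromosome 1, 154968351 to 155067051), with 4 of 12 acetylated and 9 shared. In TC-71 the densest window was 1q23.1 (chromosome 1, 156578064 to 156675933), where all 10 intervals were shared and 0 acetylated, which for 10 intervals is near the shares of the list. At 3p21.31 (chromosome 3, 50226912 to 50311910) all 9 were shared and 3 acetylated, with a median percentile of 97.9. The TC-71 windows at 1q22, 10q24.31 and 11p11.2 held 9, 9 and 8 intervals, of which 9, 7 and 8 were shared. In that order 3, 2 and 0 of them were acetylated.

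Intervals with several summits were more common in the TC-32 list, which also held wider intervals. There 1345 intervals (4.11%) had 2 or more summits, of which 1142 had 2 and the longest series had 7, while TC-71 had 182 (0.996%), with at most 3. Cutting the TC-32 list to equal length left 3.19%. Multi-summit intervals were wide, with a median of 488 bp in TC-32 and 376.5 bp in TC-71. Neighbouring summits inside them were a median of 228 and 188 bp apart.

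In TC-32 multi-summit intervals were shared less often than single-summit ones, at 31.4% (28.9 to 33.9%) against 51.1% (50.6 to 51.7%), and far more often acetylated, at 77.2% (74.9 to 79.5%) against 23.7%. With 3 or more summits, 93.1% (88.7 to 96.2%) were acetylated. The difference in sharing was present in each rank quartile, at 86.9% against 91.6%, 43.8% against 66.1%, 17.5% against 34.4% and 6.45% against 11.1% from the highest to the lowest. It was smaller among acetylated intervals, at 27.05% (24.4 to 29.9%) against 30.3% (29.2 to 31.3%), where the intervals overlap, than outside domains, at 46.1% (40.4 to 51.8%) against 57.6% (57.0 to 58.2%). By width, the TC-32 shares were 10.6% (5.40 to 18.1%) for several summits and 44.4% (43.8 to 45.1%) for 1 under 300 bp, and 15.2% (11.3 to 19.98%) against 75.7% (74.5 to 76.8%) from 300 to under 400 bp. From 400 to under 600 bp they were 36.1% (32.2 to 40.2%) against 73.8% (71.4 to 76.1%), and from 600 bp 41.8% (36.8 to 46.98%) against 57.1% (44.0 to 69.5%), where the intervals overlapped. In the TC-71 list as a whole, 95.6% (91.5 to 98.1%) of multi-summit intervals were shared against 90.3% of single-summit ones, and 51.1% (43.6 to 58.6%) were acetylated against 13.2%. This order of sharing in TC-71 did not hold in every width class, with 93.3% (85.1 to 97.8%) against 97.7% (96.3 to 98.6%) from 300 to under 400 bp, and within each rank quartile the exact intervals overlapped.

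**Figure D5:**
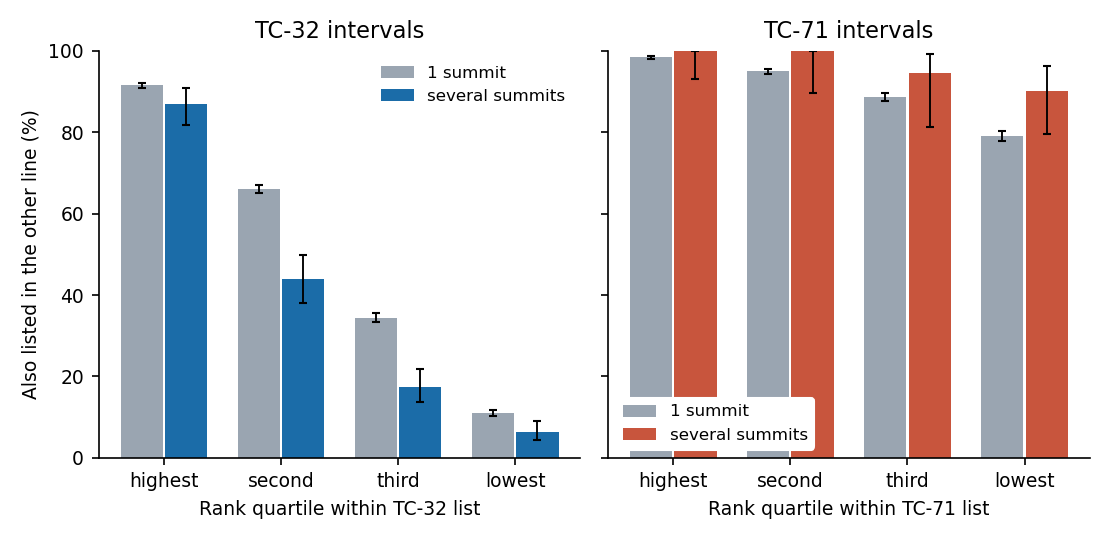
Share of SMC1 intervals also listed in the other line (percent), by rank quartile within the list, for intervals with 1 summit (grey) and with several (coloured), with exact 95% intervals as error bars. In TC-32 intervals with several summits lie lower in all 4 quartiles (43.8% against 66.1% in the second), and in TC-71 higher, with overlapping error bars in all 4.

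Where multi-summit intervals were shared, most had 1 matched summit (318 of 422 in TC-32), usually the highest. Within these 422 intervals the highest summit had a TC-71 summit within 50 bp in 84.8%, while 22.4% of their 495 other summits did. All summits were matched in 72 intervals, some in 321 and none in 29. In the other direction the highest summit was matched in 81.6% of 174 shared TC-71 intervals and 36.5% of the other summits were. Among pairs, 363 had several summits in TC-32 alone, 115 in TC-71 alone and 59 in both. Neighbouring summits lay a median of 228 bp (TC-32) or 188 bp (TC-71) apart. A partner with 1 summit therefore seldom allowed more than 1 match within 50 bp, which limits the share of other summits matched. A TC-32 interval that spanned several TC-71 intervals was listed with several summits in 35 of 39 cases.

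The interval with most summits was at 6q24.3 (chromosome 6, 147828701 to 147830579), where 7 summits were spread over 1741 bp. It was acetylated, ranked at the 45.7th percentile of TC-32 and had no TC-71 partner. Intervals with 6 summits at 3p12.3 (chromosome 3, 77088303 to 77089579) and 14q31.3 (chromosome 14, 85997408 to 85998851) were likewise acetylated and unshared. By contrast, intervals with 5 summits at 16p13.13 (chromosome 16, 11349058 to 11350254) and 3q29 (chromosome 3, 193615550 to 193617293) stood at the 96.4th and 91.2nd percentile and were shared. In TC-71 the highest-ranked interval with 3 summits was at 6p22.2 (chromosome 6, 25279154 to 25279754), acetylated and shared. The others named for TC-71 were at 1q21.1, 6q24.1, 19q13.11 and 1q21.2, all acetylated and shared, at percentiles from 3.99 to 20.2.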

How the data were processed

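Chromatin immunoprecipitation with sequencing was done in TC-32 and TC-71 cells. The authors deposited 1 narrow-peak list per line for SMC1. Per the submitters' processing notes, STAR 2.5.1b, SAMtools 1.3.1, Picard, deepTools 2.2.4, MACS2 2.1.1 and build hg19 were used. The role of each tool, its parameters and the treatment of replicates before calling were not stated in the labels. For each summit the deposited lists give a score (10 times the −log10 q, rounded down), a fold enrichment ratio, a −log10 p, a −log10 q and a summit position. These are the authors' values and were used only within a list.

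Rows with the same interval were joined, keeping the row of highest −log10 q. In TC-32, 34320 rows became 32720 intervals. In TC-71, 18455 rows became 18264 intervals on chromosomes 1 to 22 and X, and 2 intervals elsewhere were left out. Coordinates count from 1. H3K27ac and BORIS lists were used for overlap only, by at least 1 bp. Bands came from circlize 0.4.16. No gene was assigned to a peak, since no hg19 annotation was used. Lists of equal length were made by keeping the TC-32 intervals of highest −log10 p, which otherwise only broke ties. Percentiles run from 0 to 100 within a list or among pairs. Regions were named by rule, 5 of each kind, in part and leaving out chromosome 8: pairs of highest mean percentile, of largest rank difference in each direction and of largest summit offset, and per line the intervals with most summits, the longest unshared runs, the gaps holding most peaks of the other line and the densest 100 kb, besides the chromosomes of highest and lowest sharing. Ties in the number of summits went to the higher −log10 q. Bands and arms outside this rule were chosen after their values were seen. Alternatives covered the overlap, a stricter threshold, equal list lengths, ranking by fold, merging and summit spacing. Members, lists and rules were chosen with earlier results of these data known. The overlap code was tested on 8000 simulated sites and made 0 wrong calls. Shared sites there were moved by less than their width and the rest far away. Near misses, unequal widths and several summits were therefore not tested. Python 3.11.15, numpy 2.4.6, pandas 2.3.3, scipy 1.17.1, matplotlib 3.10.9 and R 4.3.3 were used.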

Additional observations from a re-analysis of the deposited data

How the results depend on the processing

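No paired analysis was possible because each deposited list stands for both samples of a line, which also meant that no replicate could be left out. The TC-32 share with a partner was 44.8% with 50% of the peak covered, 52.6% with a −log10 q of at least 5 in both lists, and 74.7% with lists of equal length, which gave 74.9% for TC-71. Leaving out intervals with several summits from both lists gave 88.1% for TC-71, since this removes partners. The median summit distance was 9 bp under all 4 alternatives. Spearman's rho was 0.40 by fold enrichment, 0.51 with equal lengths and 0.53 with the stricter threshold, and 263 of the 1000 highest peaks by fold were common. Median spacing in TC-32 was 83.9 kb with equal lengths, 50.98 kb with the stricter threshold and 49.2 kb after merging within 1 kb, and in TC-71 84.4 kb and 81.3 kb under the last 2. Intervals with several summits made up 3.19% of TC-32 with equal lengths, and 3.68% of TC-32 and 0.799% of TC-71 when summits had to be at least 150 bp apart. By fold, the rank differences on 1q and 17p reversed to 3.51 and 4.24 points, and those on 1p, 17q and Xp shrank to 2.35, 2.12 and -2.96; the cause was not tested. The alternatives by arm, without chromosome X and without multi-summit intervals were chosen after seeing the data. The unknown read depth limits the comparison of list lengths, and of sharing at low ranks in particular.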

Other observations

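Sharing differed between classes of cytogenetic bands in TC-32, with a narrower range in TC-71. As nearly every shared interval had a single partner, the TC-32 share largely restates the ratio of TC-32 to TC-71 interval numbers. This ratio was 1.66 in light and 2.57 in the darkest bands. Giemsa-dark bands are gene-poor and replicate late. In light-staining bands, 54.1% (53.4 to 54.9%) of TC-32 intervals had a TC-71 partner, and in the darkest class 34.9% (33.4 to 36.4%). In TC-71 the shares were 90.1% and 89.96%, with 91.3% the highest of any class. The density of intervals fell from 13.1 to 8.02 per Mb in TC-32 and from 7.88 to 3.12 per Mb in TC-71. Among TC-32 intervals in the highest rank quartile the shares were 92.8% in light and 83.2% in the darkest bands. At the 1395 pairs in the darkest bands, 61.4% ranked higher in TC-32, against 47.8% in light bands, and the median summit distances were 11 and 9 bp.

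Bands with at least 60 intervals over both lists ranged widely. At 1q31.1, 7 of 67 TC-32 intervals were shared, and at 5q23.2 8 of 73, while TC-71 listed 7 and 9 intervals there. At 12q13.13, the band of the HOXC genes, 73 of 89 TC-32 and 73 of 80 TC-71 intervals were shared. At 17q21.32, 5.88% of the 51 pairs ranked higher in TC-32 by −log10 q, with a median difference of 19.2 points (TC-71 minus TC-32). Rank by fold was not analysed by band. Over the whole of 17q, the median difference was 7.99 points by −log10 q and 2.12 by fold. These bands were picked after their values were seen.

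The 311 pairs with a TC-71 BORIS site stood at a median percentile among pairs of 49.4 (TC-32) and 58.5 (TC-71). The median difference was 2.1998 points, with an interquartile range of -9.14 to 17.1, and the median summit distance was 9 bp, as at the pairs without BORIS.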
